A study of Homo sapiens with 12 samples.

Results

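Genes of the alpha and beta tubulin families, 10 in all, were followed across 3 gastric cancer lines that had been sorted by surface CD133. They were 4 alpha isotypes, TUBA1A, TUBA1B, TUBA1C and TUBA4A, and 6 beta isotypes, TUBB, TUBB2A, TUBB2B, TUBB2C, TUBB3 and TUBB6. They were chosen by name and are 10 of 34595 genes with a value on the arrays. The lines were KATO-III, SNU-216 and SNU-601, all grown in the same medium with calf serum, with no treatment and no genetic change made for the experiment. From each line, cells were stained for CD133 (prominin-1, the product of PROM1), and the brightest 10% were collected as CD133+ cells and the dimmest 6% as CD133- cells. Each of the 6 sorted populations was measured on 2 Illumina HT-12 v3 BeadChip arrays, 12 arrays in all. The labels do not say whether the 2 arrays of a population came from separate sorts or cultures, so p-values measure only the spread between these arrays, which may be technical. Each line is 1 model, and a difference between lines is a difference between these cultures. The array labels name SNU-216 where the deposited design text names SNU201, and the labels were followed.

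Microtubules are built from dimers of an alpha and a beta tubulin, and human cells carry several genes for each. Most tissues express TUBA1B, TUBA1C, TUBB and TUBB2C (now called TUBB4B), whereas TUBB3 is best known as the beta tubulin of neurons, and its appearance in carcinomas has been studied in relation to drugs that bind microtubules. Cells also adjust tubulin messenger RNA to the amount of free dimer by a decay pathway that recognizes nascent tubulin chains.

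Promoter sequences are shown for 5 of the genes, because the levels of TUBB3, TUBB2B, TUBB6 and TUBA4A varied most with line or fraction and TUBB2A is the near-identical neighbor of TUBB2B. Each line gives the 250 bases before a transcript start in RefSeq (GRCh38.p14), written 5′ to 3′ on the strand of the gene. Capitals mark CCAAT and GGGCGG (the core of a GC box) on either strand, so that ATTGG and CCGCCC are their reverse complements, and where copies overlap or adjoin the capitals run together.
TUBB3 (chr16:89923092-89923341, plus strand): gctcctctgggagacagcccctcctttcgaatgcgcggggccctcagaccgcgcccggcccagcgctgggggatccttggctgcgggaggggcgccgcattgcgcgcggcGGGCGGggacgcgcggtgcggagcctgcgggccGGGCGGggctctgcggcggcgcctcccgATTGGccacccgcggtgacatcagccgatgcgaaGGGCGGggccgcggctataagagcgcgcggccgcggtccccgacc
TUBB2B (chr6:3227654-3227903, minus strand): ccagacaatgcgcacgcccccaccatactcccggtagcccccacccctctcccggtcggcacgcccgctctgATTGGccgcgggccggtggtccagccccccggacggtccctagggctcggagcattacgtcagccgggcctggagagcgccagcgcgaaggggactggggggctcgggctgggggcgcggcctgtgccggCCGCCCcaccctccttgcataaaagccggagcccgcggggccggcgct
TUBB2A (chr6:3157545-3157794, minus strand): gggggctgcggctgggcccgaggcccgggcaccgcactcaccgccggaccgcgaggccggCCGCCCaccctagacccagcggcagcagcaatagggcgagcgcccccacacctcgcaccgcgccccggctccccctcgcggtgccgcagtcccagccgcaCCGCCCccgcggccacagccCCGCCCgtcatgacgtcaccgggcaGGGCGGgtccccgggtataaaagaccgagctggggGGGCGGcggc
TUBB6 (chr18:12307991-12308240, plus strand): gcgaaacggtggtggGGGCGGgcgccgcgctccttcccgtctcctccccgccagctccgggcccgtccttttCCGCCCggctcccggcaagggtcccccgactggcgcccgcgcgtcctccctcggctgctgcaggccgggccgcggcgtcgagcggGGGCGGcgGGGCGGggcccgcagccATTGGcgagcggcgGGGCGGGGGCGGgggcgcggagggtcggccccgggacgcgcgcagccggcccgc
TUBA4A (chr2:219253919-219254168, minus strand): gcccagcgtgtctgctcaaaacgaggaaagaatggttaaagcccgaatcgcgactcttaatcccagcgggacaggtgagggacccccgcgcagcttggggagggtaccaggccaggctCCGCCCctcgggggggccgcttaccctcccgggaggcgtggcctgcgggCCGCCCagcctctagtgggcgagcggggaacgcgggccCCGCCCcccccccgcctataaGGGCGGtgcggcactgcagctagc
CCAAT occurred in 32.0% and GGGCGG in 42.6% of the 35116 windows of this length in the table, and each in 9 of the 15 windows (60%) of the tubulin genes, some of which overlap. There were more windows than genes, since TUBA1C, TUBB, TUBB3 and TUBB6 have more than 1 start. The TUBB6 window shown held 6 GC boxes and 43 CG dinucleotides, and 0.769% of all windows had more CG dinucleotides. The other TUBB6 window held neither motif and 17 CG dinucleotides (36.8% of windows had more), and the other TUBB3 window held neither motif and 9 CG dinucleotides (52.2% had more). The TUBB2B window held 1 CCAAT and 1 GC box, whereas the TUBB2A window held 5 GC boxes and no CCAAT. The matches describe the letters in these windows and not binding. TUBB2A and TUBB2B lie side by side on chromosome 6, and TUBA1B, TUBA1A and TUBA1C lie together on chromosome 12, with no other protein-coding start between them. Coding sequences within these families are similar, and the probe sequences were not used here, so a share of signal from a related gene was not tested.

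Intensities are given as deposited, linear, quantile-normalized and with a background subtracted. Values under 32.7 (the floor, a measure of background scatter) have no order. The floor was passed by 16320 to 16474 genes per array, and the 2 arrays of a population correlated at r = 0.9927 to 0.9945 over genes. PROM1 was higher in CD133+ cells of each line, with intensities of 8847 to 9513 against 4056 to 4493 in KATO-III, 8773 to 9273 against 2219 to 2232 in SNU-216, and 4677 to 4877 against 1315 to 1324 in SNU-601. EPCAM, CDH1, KRT8, KRT18 and KRT19 were above the floor on all 12 arrays, whereas the gastric markers CLDN18 and TFF1 were below it in SNU-216. MUC5AC, the other gastric marker of the list, read 59.6 and 25.1 in CD133+ and 55.0 and 50.4 in CD133- cells of SNU-216. Of 7 neuronal markers, MAP2 was above the floor in both fractions of SNU-216 and higher in CD133+ cells, and NEFL read 41.2 and 45.5 in CD133- against 32.8 and 23.5 in CD133+ cells there. The neuronal sum was at most 64.6 in the other lines. Of 5 fibroblast markers, LUM read 64.4 and 91.6 in KATO-III CD133+ cells against 743 and 783 in CD133- cells (fell by 3.31, limma adjusted p = 1.73e-06) and 60.8 and 61.3 in SNU-216 CD133+ cells. COL1A1 went the other way in KATO-III, at 51.4 and 67.1 in CD133+ against 20.6 and 27.2 in CD133- cells, which is below the floor. It was called higher there, by at least 0.84 on the log2 scale, and read 139 to 196 in SNU-601. CD14, a monocyte marker, fell by 0.53 in KATO-III CD133+ cells (limma adjusted p = 0.00609), and none of 3 endothelial markers was above the floor in any population. In bulk arrays, fewer cells of a kind and less RNA per cell cannot be told apart.

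All 10 tubulin genes had a row and passed the filter for testing, which asked for a value above the floor on at least 2 arrays. Of these, 8 were above the floor on all 12 arrays, TUBB6 on 5 and TUBB2B on 2. TUBA1C was among the brightest signals of the array, with 66 genes brighter on average, and TUBB2C, TUBA1B, TUBB and TUBA1A followed with 357, 398, 412 and 515 brighter genes. TUBB3 had 2036 brighter genes, TUBB6 5491, TUBA4A 6655 and TUBB2A 8184. These ranks place each signal on the array and do not compare amounts of transcript, since every probe has its own response.

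**Figure D1:**
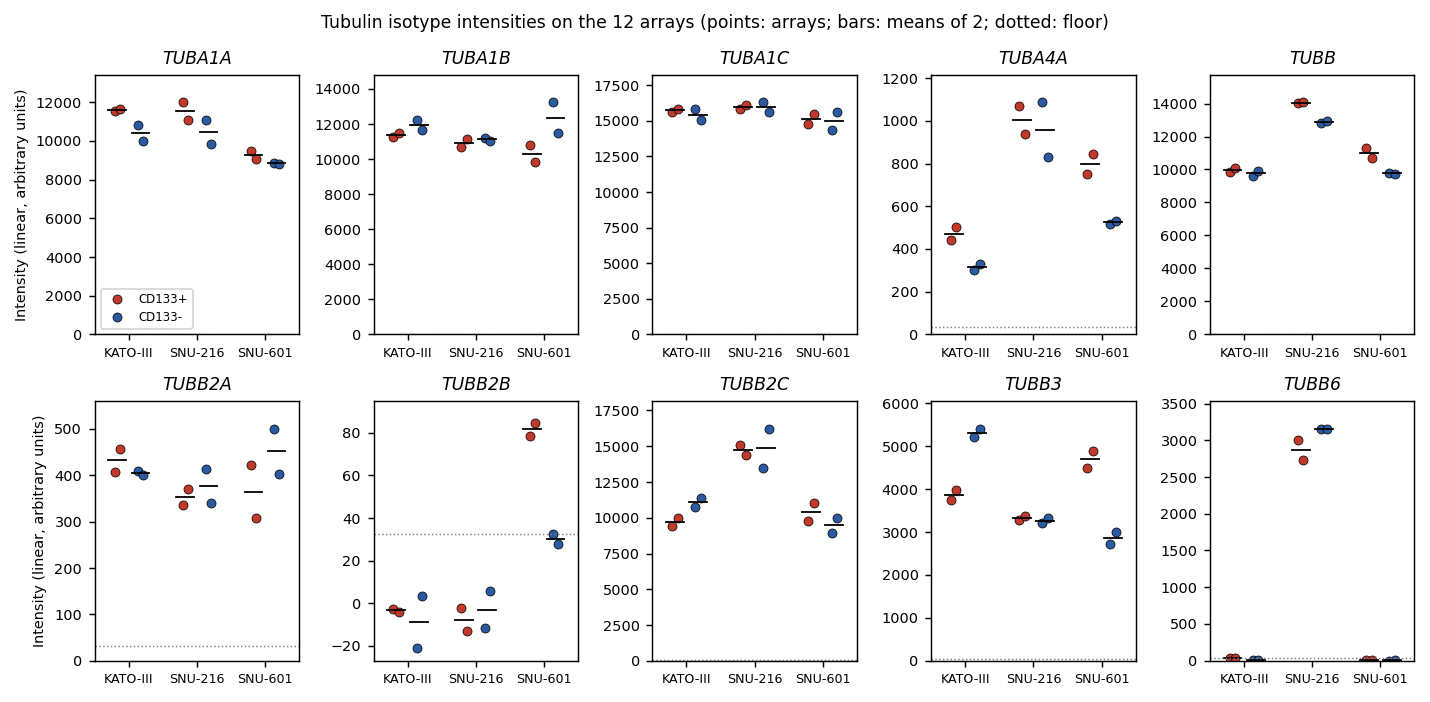
Linear intensity of each tubulin gene on the 12 arrays, in 1 panel per gene with its own axis, for CD133+ (red) and CD133- (blue) cells of the 3 lines. Points are arrays, bars are means of 2 arrays and the dotted line is the floor of 32.7. TUBB6 stands between 2731 and 3158 in SNU-216 and near the floor in the other lines, and TUBB3 is lower in CD133+ cells of KATO-III and higher in those of SNU-601.

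TUBB3, the neuronal beta isotype, changed in opposite directions with CD133 in KATO-III and SNU-601. In KATO-III, TUBB3 intensity was 3751 and 3974 in CD133+ cells and 5219 and 5410 in CD133- cells. In SNU-601 it was 4500 and 4898 in CD133+ cells and 2717 and 2999 in CD133- cells. In SNU-216 it was 3272 and 3377 against 3215 and 3323. The fractions did not overlap in KATO-III, where CD133+ cells were lower, nor in SNU-601, where they were higher, and they overlapped in SNU-216. On the log2 scale TUBB3 fell by 0.46 in KATO-III (SE 0.0619, limma adjusted p = 4e-04), a level 1.38-fold lower in CD133+ cells, and rose by 0.72 in SNU-601 (SE 0.0619, limma adjusted p = 0.000286), a 1.64-fold higher level. The log2 difference in SNU-216 was 0.02 (limma adjusted p = 0.896). The interaction of line and fraction, which tests whether the CD133 change differs between lines, gave a limma adjusted p of 4.74e-05. The CD133 change also differed between each pair of lines. The difference of the log2 changes was -1.18 for KATO-III minus SNU-601 (limma adjusted p = 3.39e-05, a test that 30.1% of all genes passed), -0.48 for KATO-III minus SNU-216 (0.0029, 32% of all genes) and -0.69 for SNU-216 minus SNU-601 (0.000557, 28.2% of all genes). Both within-line calls and the interaction held in each of the 12 fits that left out 1 array. When SNU-601 was fitted on its own 4 arrays, the TUBB3 call there ended (limma adjusted p = 0.0786) at the same size of change. In order of level the populations ran KATO-III CD133-, SNU-601 CD133+, KATO-III CD133+, SNU-216 CD133+, SNU-216 CD133-, SNU-601 CD133-, and of neighbors in this order the 2 SNU-216 fractions alone did not differ by the test. Beside these values, NEFL was the only one of 7 neuronal markers above the floor on any array of KATO-III or SNU-601. It read 20.7 and 40.3 in KATO-III CD133+ cells against 22.0 and 27.9, and 64.6 and 30.8 in SNU-601 CD133+ cells against 30.1 and 29.6 (log2 difference 0.49, limma adjusted p = 0.275). The gastric markers MUC5AC and TFF1 fell in CD133+ cells of both lines, with log2 changes of -3.50 and -1.79 in KATO-III (limma adjusted p = 1.16e-05 and 3.68e-07) and -2.08 and -0.90 in SNU-601 (0.00107 and 0.000117). The part of these markers in the TUBB3 values was not tested.

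TUBB2B, a beta isotype of developing neurons, was above the floor in a single population. It read 78.7 and 84.8 in SNU-601 CD133+ cells, 32.5 and 27.9 in SNU-601 CD133- cells, and between -20.7 and 5.63 on the 8 arrays of the other lines. The SNU-601 fractions did not overlap, and every value outside SNU-601 CD133+ cells was below the floor. TUBB2B was therefore at least 2.50-fold higher in CD133+ than in CD133- cells of SNU-601 (limma adjusted p = 0.000141). It had entered the tests only through the 2 SNU-601 CD133+ arrays, with every other population set to the floor, so that it had to differ, and its p-values are given as a description. The interaction gave a limma adjusted p of 0.000118 in the same way, and it was 0.0996 on log2 values with an offset of 100 in place of the floor. The level of 78.7 to 84.8 is faint beside the highest intensity of 23394 on the arrays. TUBB2A, the neighboring gene, read 307 to 422 in the same CD133+ cells and 402 to 501 in the CD133- cells. Its SNU-601 fractions overlapped, and its log2 difference was -0.32 (limma adjusted p = 0.265).

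TUBA4A, an alpha isotype known from muscle, brain and platelets, was higher in CD133+ cells of 2 lines. In KATO-III its intensity was 441 and 503 in CD133+ cells and 301 and 328 in CD133- cells. In SNU-601 it was 753 and 846 against 517 and 533. In SNU-216 it was 1071 and 936 against 1086 and 831. The fractions did not overlap in KATO-III and SNU-601 and overlapped in SNU-216, whose arrays spread most. TUBA4A rose by 0.58 on the log2 scale in KATO-III (SE 0.132, 1.50-fold, limma adjusted p = 0.00721) and by 0.60 in SNU-601 (SE 0.132, 1.52-fold, limma adjusted p = 0.0155), and the log2 difference in SNU-216 was 0.08 (limma adjusted p = 0.794). A difference between lines in this change did not pass (limma adjusted p = 0.0706), but passed without SNU-216 CD133- replicate 2 (0.0165), with an offset of 100 (0.0435) and among genes above the floor on all 12 arrays (0.0278). The KATO-III call ended without CD133+ replicate 2 (limma adjusted p = 0.0687) or CD133- replicate 1 (0.0551), or on the line's 4 arrays alone (0.0521). The SNU-601 call ended without its CD133+ replicate 2 (limma adjusted p = 0.096), CD133- replicate 1 (0.0798) or CD133- replicate 2 (0.066), on the line's 4 arrays alone (0.0866) or with no filter on dim genes (0.0591).

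TUBB, the common beta isotype, changed little but with a small spread. In SNU-216 its intensity was 14019 and 14068 in CD133+ cells and 12808 and 12917 in CD133- cells. In SNU-601 it was 11297 and 10724 against 9808 and 9735, and in KATO-III it was 9818 and 10117 against 9624 and 9898. The fractions did not overlap in SNU-216 and SNU-601, where CD133+ cells were higher, and they overlapped in KATO-III. The rise was 0.13 on the log2 scale in SNU-216 (1.09-fold, SE 0.0398, limma adjusted p = 0.0422) and 0.17 in SNU-601 (1.13-fold, SE 0.0398, limma adjusted p = 0.0194). The SNU-216 call ended without any 1 of the line's 4 arrays (limma adjusted p from 0.0974 to 0.125) and without either SNU-601 CD133- array (0.0534). The SNU-601 call ended without its CD133+ replicate 1 (limma adjusted p = 0.0959), CD133- replicate 1 (0.0639) or CD133- replicate 2 (0.0777).

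The remaining alpha isotypes moved less. TUBA1B, the main housekeeping alpha tubulin, read 10789 and 9835 in SNU-601 CD133+ cells and 13235 and 11473 in CD133- cells, without overlap. It fell by 0.26 on the log2 scale there (SE 0.0717, a level 1.20-fold lower, limma adjusted p = 0.0402), a call that ended in 11 of the 12 fits that left out 1 array, with adjusted p up to 0.207. Without SNU-601 CD133- replicate 2 the call stayed (limma adjusted p = 0.0177), and the TUBA1B change then differed between lines (0.0347, as against 0.18 with all arrays). TUBA1A, an alpha isotype prominent in the developing brain, had log2 differences of 0.16 in KATO-III (limma adjusted p = 0.0953), 0.14 in SNU-216 (0.154) and 0.07 in SNU-601 (0.611). Its 2 CD133+ arrays lay above its CD133- arrays in KATO-III and SNU-601 and overlapped them in SNU-216, where the difference passed without CD133- replicate 1 (0.23, limma adjusted p = 0.0445). TUBA1C, the most even of the group, ranged from 14355 to 16300 over the 12 arrays, a ratio of 1.14, and its log2 differences lay at 0.03, 0.00 and 0.02 in KATO-III, SNU-216 and SNU-601.

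TUBB2C, a widely expressed beta isotype, had its lowest KATO-III values in CD133+ cells, 9412 and 9987 against 10751 and 11397, without overlap, but the log2 difference of -0.19 did not pass (SE 0.0967, limma adjusted p = 0.161). In the other lines its fractions overlapped. TUBB6, a beta isotype found in many non-neuronal tissues, read 3004 and 2731 in SNU-216 CD133+ cells and 3157 and 3158 in CD133- cells (log2 difference -0.14, limma adjusted p = 0.38). In KATO-III it read 35.4 and 31.4 in CD133+ cells and 7.40 and 13.5 in CD133- cells, where 1 of 4 arrays passed the floor.

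**Figure D2:**
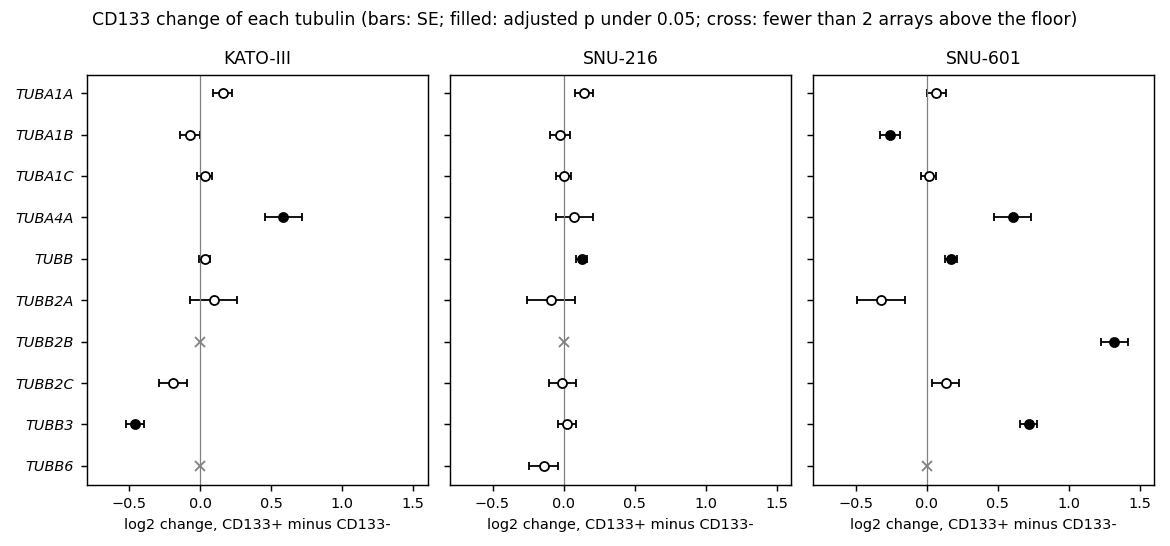
Log2 change of each tubulin gene, CD133+ minus CD133-, in each line, with the standard error from limma as bars. Filled points passed an adjusted p of 0.05 and crosses mark genes with fewer than 2 arrays of the line above the floor, and the TUBB2B value in SNU-601 is a lower bound. TUBB3 lies at -0.46 in KATO-III and 0.72 in SNU-601, and TUBA4A at 0.58 and 0.60.

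Counted together, 2 of the 10 tubulin genes passed the test in KATO-III, where 39.3% of all 20147 tested genes passed, 1 in SNU-216 (28.6% of all genes) and 5 in SNU-601 (16.4% of all genes). The 5 in SNU-601 were 4 higher (8.59% of all genes) and 1 lower (7.78%), the KATO-III genes 1 higher (18.7%) and 1 lower (20.6%), and the SNU-216 gene was higher (14.6%, with 14% of all genes lower). The shares in KATO-III and SNU-216 were below those of all genes. The share in SNU-601 was above, but it includes TUBB2B, and it fell to 2 to 4 genes when 1 array was left out. The median log2 difference of the 10 genes was 0.03, 0.00 and 0.10 in the 3 lines, beside a median of 0 over all tested genes in each. Over all lines, with line as a block, 0 of the 10 genes passed limma's test (4.73% of all genes passed), 5 had an unadjusted p under 0.05 (24.5% of all genes did) and 0 passed a signal-to-noise ratio of 1 (0.558% of the 34595 genes did) or -1 (0.402%). TUBA4A came nearest (log2 difference 0.42, SE 0.113, limma adjusted p = 0.0561), and it passed without SNU-216 CD133+ replicate 2 (0.0475) or SNU-216 CD133- replicate 1 (0.0268). The 5 genes with an unadjusted p under 0.05 over all lines include TUBA1B, which was lower in CD133+ cells. They also include TUBB2B, which entered the tests only through the SNU-601 CD133+ arrays. TUBB3 and TUBB2B, 2 of the 10 genes, differed between lines in their CD133 change, as did 44.4% of all genes.

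The larger differences among the tubulins lay between the lines. Of the 10 genes, 7 differed between lines, where 72.3% of all tested genes did. By pairs of lines, 5 genes differed between KATO-III and SNU-216 (62% of all genes), 4 between KATO-III and SNU-601 (58.6%) and 7 between SNU-216 and SNU-601 (56.5%). The counts include TUBB2B, overall and in both pairs with SNU-601. TUBB2B entered the tests only through the 2 SNU-601 CD133+ arrays, so it had to differ and its line differences are a description. TUBB6 entered the tests through the 4 SNU-216 arrays and 1 of KATO-III, so its line difference is a description as well. Its intensity was 2731 to 3158 in SNU-216, 7.40 to 35.4 in KATO-III and -1.43 to 8.01 in SNU-601, so that SNU-216 stood apart from both other lines on every array. The level in SNU-216 was at least 92.0-fold that in SNU-601 (log2 difference 6.52, limma adjusted p = 3.12e-12) and at least 90.2-fold that in KATO-III on floored values (log2 difference -6.49 for KATO-III minus SNU-216, limma adjusted p = 3.22e-12). Genes beside TUBB6 on chromosome 18 shared this pattern only in part. AFG3L2, SLMO1 (PRELID3A in RefSeq) and SPIRE1, which lie after TUBB6, each averaged highest in SNU-216. Before TUBB6, IMPA2 averaged highest in KATO-III and MPPE1 in SNU-601. A cause common to TUBB6 and its neighbors was not tested. AFG3L2, IMPA2, MPPE1 and SLMO1 were above the floor on every array of every line. AFG3L2 read 3883 to 5818 in KATO-III, 5748 to 6298 in SNU-216 and 2723 to 3347 in SNU-601. SLMO1 read 343 to 429 in KATO-III, 436 to 632 in SNU-216 and 73.0 to 117 in SNU-601. SPIRE1, an actin nucleation factor, read 54.0 to 112 in KATO-III, 5037 to 6741 in SNU-216 and 914 to 1551 in SNU-601, and CIDEA was near the floor in all.

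TUBA4A and TUBB ran highest in SNU-216 and lowest in KATO-III. TUBA4A averaged 981 in SNU-216, 662 in SNU-601 and 394 in KATO-III, and was 2.53-fold higher in SNU-216 than in KATO-III (limma adjusted p = 1.15e-06) and 1.51-fold higher than in SNU-601 (0.000404). TUBB averaged 13453 in SNU-216, 10391 in SNU-601 and 9865 in KATO-III. SNU-216 exceeded KATO-III 1.36-fold (limma adjusted p = 5.5e-07) and SNU-601 1.30-fold (1.96e-06), whereas KATO-III and SNU-601 did not differ by the test (0.0522). TUBB2C averaged 14797 in SNU-216, 10387 in KATO-III and 9924 in SNU-601, and was 1.43-fold higher in SNU-216 than in KATO-III (limma adjusted p = 0.000127) and 1.49-fold higher than in SNU-601 (5.38e-05). TUBA1A averaged 11008 in KATO-III and 11003 in SNU-216, and was 1.21-fold lower in SNU-601 than in each of these (limma adjusted p = 0.000691 and 0.000669). Averaged over both fractions, TUBB3 was 1.37-fold higher in KATO-III than in SNU-216 (limma adjusted p = 1.13e-05), but this averages the opposite changes described above, and its line difference ended when the arrays of a population were averaged first (0.439). The same happened to TUBB2B (0.271) and TUBA1A (0.128). TUBA1B, TUBA1C and TUBB2A did not differ between lines (limma adjusted p = 0.378, 0.178 and 0.321).

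Shares of the spread over the 12 arrays sorted the genes in the same way. Line accounted for 100% of the sum of squares of log2 intensity for TUBB6 (rounded), 90% for TUBB, 86.3% for TUBB2C, 81% for TUBA4A and 71.9% for TUBA1A. For TUBB3 the line-by-fraction part held 59% and line 36.7%. CD133 fraction by itself held its highest share, 35.1%, in TUBA1B. The 2 arrays of a population differed enough to hold 50.2% of the spread of TUBA1C and 51.8% of that of TUBB2A, the 2 genes that no test called.

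**Figure D3:**
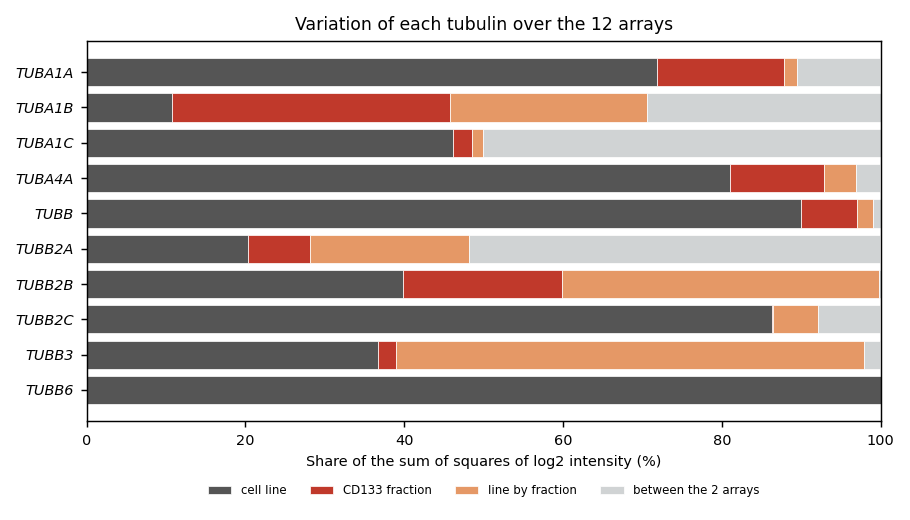
Share of the sum of squares of floored log2 intensity over the 12 arrays, for each tubulin gene, that lies between cell lines, between CD133 fractions, in their combination and between the 2 arrays of a population. Line fills most of the bar for TUBB6 (100%), TUBB (90%) and TUBB2C (86.3%), the combination holds 59% for TUBB3, and the arrays hold 51.8% for TUBB2A.

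Likeness over the 12 arrays was described by Pearson's r of log2 intensity among 11673 genes above the floor on all arrays, and every pair shares the same 12 arrays and 6 populations. TUBB correlated with TUBB2C at 0.87 and with TUBA4A at 0.86, and TUBA1B with TUBB2A at 0.81. The r of TUBB3 with the other tubulins among these genes ran from -0.46 (TUBA4A) to 0.04 (TUBA1A). The genes most like TUBB3 were C8ORF51 (r = 0.91), C11ORF24 (0.88) and HIST1H2BJ (0.88), with 1 gene above 0.9. TUBB was most like COQ6 (0.99), PRSS23 (0.98) and CCDC18 (0.98), with 322 genes above 0.9. TUBA4A was most like CCDC99, SQLE and KIF18A (r = 0.98, 0.98 and 0.97).

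Genes for other tubulins were mostly faint. Of 13 listed, 7 were tested and 6 (TUBA3C, TUBA3E, TUBA8, TUBB1, TUBB4 and TUBB8) were above the floor on no array. In CD133+ cells 3 were higher and 1 lower in KATO-III (18.7% and 20.6% of all genes), 0 and 1 in SNU-216 (14.6% and 14%), and 2 and 1 in SNU-601 (8.59% and 7.78%). TUBD1, the delta tubulin of centrioles, averaged 169 in KATO-III CD133+ and 27.0 in CD133- cells (log2 change of at least 2.37, since both CD133- arrays were below the floor, limma adjusted p = 1.11e-06). TUBE1, the epsilon tubulin of centrioles, averaged 112 and 36.2 (log2 change 1.63, limma adjusted p = 4.71e-05), and TUBA3D 165 and 57.5 (log2 change 1.50, limma adjusted p = 0.000697). TUBG2, a gamma tubulin of microtubule nucleation, averaged 813 and 1468 in KATO-III (fell by 0.85, limma adjusted p = 2.22e-05) and 897 and 1216 in SNU-216 (fell by 0.44, limma adjusted p = 0.0015), but 1380 and 1076 in SNU-601 (rose by 0.36, limma adjusted p = 0.00848). TUBAL3 fell in SNU-601 from 95.7 to 47.1 (log2 change -1.01, limma adjusted p = 0.00221).

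The genes that nucleate, fold, modify and bind tubulin are given by their counts. Beside these stand the shares of all genes called higher and lower, 18.7% and 20.6% in KATO-III, 14.6% and 14% in SNU-216, and 8.59% and 7.78% in SNU-601. The CD133 change differed between lines for 5 of 10 ring-complex, 16 of 21 folding, 8 of 16 modification, 3 of 4 autoregulation and 11 of 17 microtubule-associated genes, where 44.4% of all genes differed. Of 10 tested genes of the gamma-tubulin ring complex, which include TUBG1 and TUBG2, 3 were higher and 1 lower in KATO-III, 1 higher and 3 lower in SNU-216, and 3 higher and 0 lower in SNU-601. NEDD1, which brings the complex to the centrosome, rose by 0.93 in KATO-III (limma adjusted p = 0.00537) and 0.96 in SNU-216 (0.0066). C13ORF37 (now MZT1) rose by 0.92 in KATO-III (2.22e-05) and 0.64 in SNU-601 (0.000941), and TUBGCP3 fell by 0.93 or more in SNU-216 (0.0193), where its CD133+ cells were below the floor. Of 21 folding genes (the CCT chaperonin, prefoldin and the tubulin cofactors), 9 were higher and 6 lower in KATO-III, 6 and 2 in SNU-216, and 2 and 2 in SNU-601. TCP1 rose by 1.38 in KATO-III (limma adjusted p = 6.98e-05), CCT6A by 1.22 (5.11e-05) and PFDN4, below the floor in CD133- cells, by at least 0.83 (0.0104), whereas PFDN2 fell by 0.98 (0.00434). The 4 genes of tubulin autoregulation held 1 lower in KATO-III, C2ORF29 (now CNOT11; -0.40, limma adjusted p = 0.000318), 1 higher in SNU-216, TTC5, which recognizes nascent tubulins (0.32, limma adjusted p = 0.0368), and 1 higher in SNU-601, SCAPER (0.48, limma adjusted p = 0.0162).

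Of 16 tested modification genes, 2 were higher and 3 lower in KATO-III, 2 and 4 in SNU-216, and 1 and 2 in SNU-601. AGTPBP1, a tubulin deglutamylase, rose by 0.98 in KATO-III (limma adjusted p = 0.000505) and 0.42 in SNU-216 (0.0497). VASH2, which removes the terminal tyrosine, rose by at least 1.01 in SNU-216 (limma adjusted p = 0.00685), where its CD133- cells were below the floor. VASH2 entered the tests only through the 2 SNU-216 CD133+ arrays, so its p-value and its count as higher are a description. C6ORF134 (ATAT1, the alpha-tubulin acetyltransferase) fell by 0.86 in SNU-216 (0.0198) and TTLL13 by 0.69 in KATO-III (0.00949). Of 17 microtubule-associated genes, 4 were higher and 3 lower in KATO-III, 7 and 5 in SNU-216, and 3 and 3 in SNU-601. SPAST, a severing enzyme, rose by 1.32 in SNU-216 (limma adjusted p = 0.0021) and 0.92 in KATO-III (0.00944). MAP2 rose by 1.14 in SNU-216 (0.000122), where TUBB3 did not pass the test, and CLASP2 rose by 0.67 there (0.000384). STMN3, a stathmin that binds free dimers, fell by 1.00 in SNU-216 (2.39e-06) and by 0.54 in KATO-III (2.38e-05), and rose by 0.26 in SNU-601 (0.00474).

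Of 10 proliferation genes, 7 were higher and 1 lower in KATO-III (18.7% and 20.6% of all genes), 2 and 1 in SNU-216 (14.6% and 14%), and 9 and 0 in SNU-601 (8.59% and 7.78%), with median log2 differences of 0.68, 0.00 and 0.63. Their summed intensity was 49092 to 49641 in CD133+ against 39150 to 41098 in CD133- cells of KATO-III, 58870 to 62673 against 59092 to 59299 in SNU-216, and 54243 to 55742 against 38809 to 38927 in SNU-601. TUBA4A was higher in CD133+ cells of the same 2 lines, though its change did not differ between lines by the interaction test (limma adjusted p = 0.0706). TUBB3 moved in opposite directions in them. CDC20 also did, but its KATO-III change of -0.42 was the lowest of the proliferation list. The genes called higher in KATO-III include BUB1, CCNB1, PLK1 and CDC2, with log2 changes of 1.47, 1.33, 1.20 and 0.96. CDC20 averaged 7785 in CD133+ against 10421 in CD133- cells of KATO-III, and 12802 against 7951 in SNU-601. The part of the proliferation difference in these tubulin values was not tested.

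**Figure D4:**
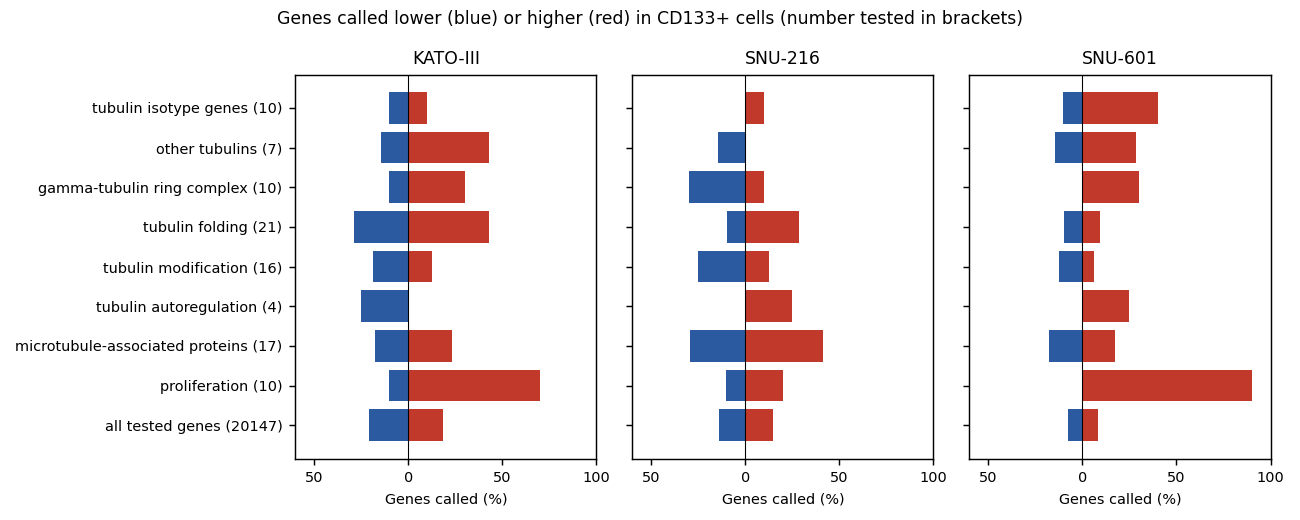
Percent of the tested genes of each list, and of all tested genes, called higher (red, right) or lower (blue, left) in CD133+ cells in each line by limma at an adjusted p of 0.05. The tubulin isotype genes have 1 higher and 1 lower of 10 in KATO-III, 1 higher in SNU-216, and 4 higher and 1 lower in SNU-601, and proliferation genes have 7 of 10 and 9 of 10 higher in KATO-III and SNU-601.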

How the data were processed

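The authors deposited 1 table of intensities for the 12 arrays, with a row per gene symbol. The intensities are linear, quantile-normalized by the authors per their methods, and processed with BeadStudio per the submitters' processing notes. The values show a subtracted background (32.1% are at or below 0). The rule that joined several probes into 1 row is not given in the sources used here. Of 34688 rows, 93 are empty. The arrays' number and their background limit the precision, since arrays carry no read depth. Chip and scan batches are not given in the sources used here.

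Values under 32.7 (the size of the 1st percentile, -32.7) were set to that floor and log2 was taken. A gene entered the tests if 2 or more arrays exceeded the floor (20147 genes, 58.2%). limma 3.58.1 in R 4.3.3 was fitted across all of them with a mean for each population (6 residual degrees of freedom), or with line as a block (8), with trend. P-values were adjusted by Benjamini-Hochberg and called at 0.05. The script was tested on simulated data. The signal-to-noise ratio was the difference of means over the sum of SDs on linear intensities. Replicate numbers did not pair the arrays, since the 15 correlations of deviations lay between -0.0116 and 0.0276. All 10 members are named. From each other list the up to 4 genes with the largest called change in a line are named. Neighbors of TUBB6 and the example sequences were chosen after its values were seen. The members and the gene lists were chosen with earlier results of these data known. Promoter windows, gene order and names came from RefSeq (GRCh38.p14). Other floors, an offset, filters, normalizations, trend settings, replicate and population blocks, population means, fits per line and fits without each array were tried as alternatives.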

Additional observations from a re-analysis of the deposited data

Results flagged for a closer look

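The CD133 change of TUBB3 differed between the lines by the interaction test (limma adjusted p = 4.74e-05), with log2 changes of -0.46 in KATO-III, 0.02 in SNU-216 and 0.72 in SNU-601 over 2 arrays per population. The CD133 change of TUBB2B differed between the lines by the same test (limma adjusted p = 0.000118), with a log2 change of at least 1.32 in SNU-601 and all arrays of the other lines below the floor. TUBB2B entered the tests only through the SNU-601 CD133+ arrays, and the adjusted p was 0.0996 with an offset of 100 in place of the floor. Groups of 2 arrays are too small for a test of single outlying arrays.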

How the results depend on the processing

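Calls over all genes moved with the processing. In SNU-601 they numbered 3298, but 2367 with no filter, 2748 with no trend and 209 on the line's 4 arrays alone. On 4 arrays alone they went from 7917 to 5251 in KATO-III and from 5762 to 2469 in SNU-216. Differences between lines went from 14572 to 6996 with population means, and calls over all lines from 953 to 1147 with a floor of 100. The number of tubulin genes called changed with the processing as follows, and the cause was not tested. Over all lines it was 1 instead of 0 with a floor of 100 or with genes above the floor on all 12 arrays (TUBA4A, limma adjusted p = 0.0465 and 0.0366), and 0 to 1 without single arrays. In KATO-III it was 1 instead of 2 on the line's 4 arrays alone, and 1 to 2 without single arrays. In SNU-216 it was 0 instead of 1 with a floor of 16, an offset of 100, no trend or the 4 arrays alone, and 0 to 1 without single arrays. In SNU-601 it was 3 instead of 5 with no filter or no trend, 1 on the 4 arrays alone, and 2 to 4 without single arrays. Differences between lines in the CD133 change numbered 1 instead of 2 with a floor of 100, which leaves TUBB2B untested, and 2 to 3 without single arrays. TUBB6 joined them with a floor of 16 (0.00241) and with the offset (0.0385), and TUBA4A with the offset (0.0435) and among genes above the floor on all 12 arrays (0.0278). Differences between lines numbered 4 instead of 7 with population means, and 7 in every fit without 1 array. With population as a random block TUBB2B (0.0887) and TUBB3 (0.173) lost theirs, and with centered arrays TUBA1C gained one (0.0366). The signal-to-noise ratio over all lines passed 1 or -1 for 0 genes in every fit without 1 array. Taken within lines and averaged, it did so for 4 genes instead of 0. That form rests on SDs of 2 arrays each, and the share of all genes passing it is not given. The 4 genes are therefore not read as a result. With the replicate block, which does not pair these arrays, 0 genes instead of 1 were called in SNU-216 (TUBB, limma adjusted p = 0.0597) and TUBA1A was called in KATO-III (0.0479).

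Changes of sign concerned uncalled values near 0. Over all lines, TUBB2C was 0.0046 with arrays centered on their medians, and TUBB6 was 0.31 with a floor of 16 and 0.051 with the offset. In SNU-216, TUBA1C was -0.0038 after a further quantile normalization. TUBB6 was called in KATO-III with a floor of 16 (log2 1.06, limma adjusted p = 0.00041) and with the offset (0.27, 0.0215). Without single arrays the log2 differences over all lines ran from -0.00034 to 0.031 for TUBA1C, -0.063 to 0.0099 for TUBB2C, -0.0020 to 0.17 for TUBB3 and -0.053 to 0.0039 for TUBB6. For TUBA1C they ran from -0.0058 to 0.064 in KATO-III and -0.047 to 0.078 in SNU-601. In SNU-216 they ran from -0.059 to 0.0049 for TUBA1B, -0.030 to 0.032 for TUBA1C, -0.12 to 0.27 for TUBA4A, -0.23 to 0.054 for TUBB2A and -0.14 to 0.13 for TUBB2C. Signal near background limits TUBB6 outside SNU-216. It limits TUBB2B in every line, since TUBB2B read at most 84.8, in SNU-601 CD133+ cells, and was below the floor in SNU-601 CD133- cells.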
